A study of Saccharomyces cerevisiae with 9 samples.

Results

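Yeast cells thawed after 48 h in the frozen state were compared with cells thawed after 24 h, which asks whether the second day at -30 °C left a further mark on the transcript population. The comparison uses the 3 arrays of the 48 h group and the 3 arrays of the 24 h group, 6 of the 9 arrays in the series, matched by the replicate number in their titles, and covers 5396 of the 5449 genes that have a probe set. All cells were BY4741, a haploid laboratory strain of Saccharomyces cerevisiae of mating type a that carries deletions at HIS3, LEU2, MET17 and URA3. They had been taken from log phase in rich medium (YPD), washed and suspended in distilled water. The frozen groups share this protocol, the freezing at -30 °C and a thaw of 10 min in a 30 °C bath, and differ in the hours frozen. The 3 unfrozen arrays come from cells of the same suspension step that were never frozen. The labels speak of independent triplicates and elsewhere of a pair of independent experiments, so each p-value reflects the spread among these 6 arrays, part of which may be technical.

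Freezing a cell suspension concentrates solutes, draws water out of cells and damages membranes, and thawing adds oxidative stress. Trehalose, glycerol, chaperones, hydrophilins and water channels are the protective components best known in yeast, and the general stress activators Msn2 and Msn4 and the heat shock factor Hsf1 drive many of their genes. Copper enters this setting through its uptake genes, which the activator Mac1 controls, and through the copper-zinc superoxide dismutase Sod1. In bulk RNA such as this, fewer cells of a type and less RNA per cell cannot be told apart.

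Values are log2 signals, scaled so that budding yeast probe sets have an equal median on every array, and differences are 48 h minus 24 h, so a positive value is higher at 48 h. Before scaling, the median signal was 303, 289 and 726 on the 48 h arrays of replicates 1, 2 and 3, against 303, 237 and 679 on the 24 h arrays. The arrays of replicate 3 were thus the brightest in each group. The median signal of 17 ribosomal RNA control probe sets was 9.78, 7.64 and 9.80 at 48 h, against 7.94, 9.68 and 10.43 at 24 h. Its paired differences of 1.84, -2.03 and -0.64 run in opposite directions (mean -0.28 ± 1.96, SD, n = 3 pairs; exact two-sided sign-flip test p = 0.75, where the smallest p that 3 pairs allow is 0.25). The 3' minus 5' signal of 7 control genes, a measure of RNA integrity, had paired differences of -0.13, -0.16 and 0.07 (same exact test, p = 0.5). The mating-type genes gave a mixed check of the strain. The a-cell genes MFA1 and STE2 averaged 12.02 and 12.07 at 48 h, against 12.26 and 12.04 at 24 h, while the alpha-factor gene MF(ALPHA)1 averaged 2.81 at 48 h and 2.15 at 24 h, near the background threshold of 2.21. The 3 other alpha-cell genes were above that threshold, with means of 4.56 at 48 h and 4.29 at 24 h for MF(ALPHA)2, of 6.12 at 48 h and 6.02 at 24 h for STE3, and of 7.89 at 48 h and 7.79 at 24 h for SAG1. SAG1 was thus above the threshold by more than the a-cell gene ASG7, which averaged 6.77 at 48 h and 6.49 at 24 h. The remaining a-cell genes MFA2, STE6, BAR1 and AGA2 were all above SAG1. They averaged 11.74, 9.82, 9.96 and 9.35 at 48 h, against 11.86, 9.76, 10.03 and 9.42 at 24 h. Signals of different probe sets are not directly comparable. The threshold is low, since 5396 of 5449 genes exceeded it, so lying above it says little about whether a gene was expressed.

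No gene differed between 48 h and 24 h at an adjusted p under 0.05, neither higher (0 of 5396, 0%) nor lower (0 of 5396, 0%), in limma's paired test with Benjamini-Hochberg adjustment, and the smallest adjusted p was 0.953. At an unadjusted p under 0.05 there were 78 higher genes (1.45%) and 57 lower genes (1.06%), together 135 genes. The mean differences were small: their median was 0.01, their SD 0.22, and their 5th and 95th percentiles were -0.32 and 0.33. A mean difference of 2-fold or more was seen in 15 genes, 5 higher and 10 lower. All 15 were dim, with frozen signals between 2.39 and 4.13, a range that holds the lowest 2.26% of genes, and 9 of them had a group mean below the background threshold. By the same count, the mean of the 6 frozen arrays differed from the unfrozen mean by 2-fold or more in 232 genes (4.30%), and that difference had an SD of 0.48.

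A p that misses the threshold does not show that a gene was equal at both times, so the intervals matter more than the count of 0. The 95% interval of the 48 h minus 24 h difference lay within 2-fold either way for 5129 genes (95.1%), within 1.5-fold for 3566 genes (66.1%) and within 4-fold for 5374 genes (99.6%). From its centre to either bound, the interval had a median width of 0.37 over all genes. This width was 0.45 for the dimmest 1349 genes and 0.34 for the brightest 1349. These widths hold for 1 gene at a time, before adjustment over all genes. In limma's paired test with adjustment, larger differences also missed the threshold, such as that of BAG7 (0.75, unadjusted p = 0.00246, adjusted p = 0.953).

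The pairs differed in spread and in direction. Differences in pair 1 had an SD of 0.53 across genes, against 0.29 in pair 2 and 0.26 in pair 3. In pair 1, 113 genes were 2-fold or more higher at 48 h and 163 were 2-fold or more lower, together 5.11% of genes, whereas pair 2 had 33 and 23 such genes (1.04%) and pair 3 had 12 and 12 (0.44%). Across the 5396 genes, differences in pair 1 correlated at r = 0.05 with those in pair 2 and at r = -0.13 with those in pair 3, and pairs 2 and 3 correlated at r = 0.05. These correlations are across genes, which are not independent replicates. A gene was higher at 48 h in all 3 pairs in 669 cases (12.4%) and lower in all 3 in 608 cases (11.3%). At 2-fold or more in every pair, 0 genes were higher (0%) and 1 gene, LEU2, was lower (0.0185%). Without regard to pairing, every 48 h array lay above every 24 h array for 86 genes (1.59%) and below for 70 genes (1.3%).

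**Figure D1:**
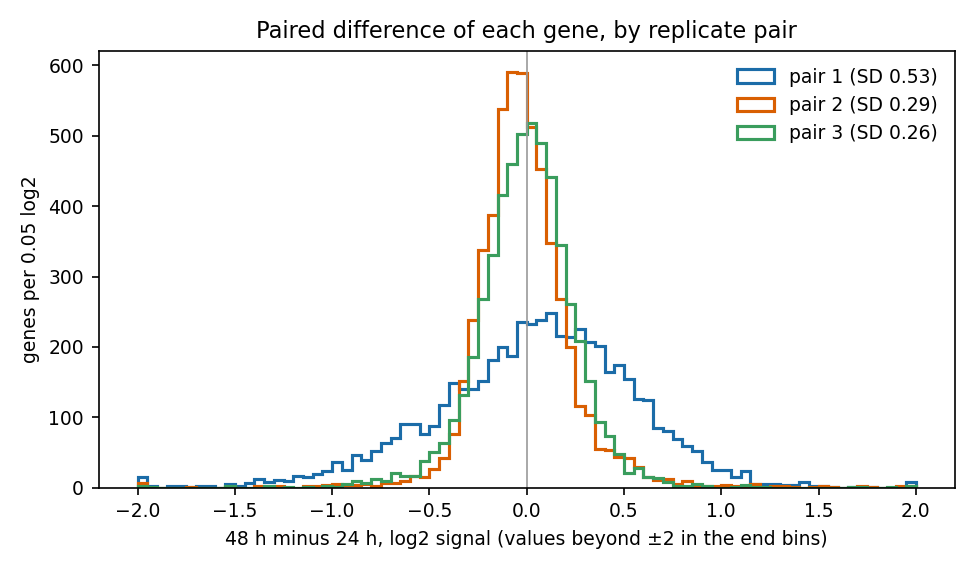
Number of genes (vertical axis, per bin of 0.05 log2) by paired difference, 48 h minus 24 h, in log2 signal (horizontal axis) for each of the 3 replicate pairs. Pair 1 is the widest (SD 0.53) and pairs 2 and 3 are narrower (SD 0.29 and 0.26), and all 3 are centred near 0.

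Arrays of the same group also differed from one another. The SD across genes of the difference between a pair of arrays ranged from 0.54 to 0.90 among the 48 h arrays and from 0.40 to 0.58 among the 24 h arrays. The widest of these was 48 h replicate 1 against 48 h replicate 3, which differed by 2-fold or more for 28.2% of genes. Deviations from the group means correlated between the 48 h array and the 24 h array of the same number at 0.59, 0.39 and 0.79 across genes. Between the 24 h array and the unfrozen array of the same number, the correlations were -0.38, 0.25 and -0.12.

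The genes nearest to a difference are described by value only, since none passed. Among genes higher at 48 h in all 3 pairs, the 10 with the smallest unadjusted p had mean differences of 0.47 to 0.83 and unadjusted p-values of 0.00246 to 0.0134, all with an adjusted p of 0.953. BAG7, a GTPase-activating protein for the cell wall regulator Rho1, had signals of 7.86, 7.32 and 7.06 at 48 h, against 6.83, 6.94 and 6.21 at 24 h. Every 48 h array was above every 24 h array, and the mean difference was 0.75 (SE 0.18, 95% interval 0.34 to 1.16). PST1, a cell wall protein that accumulates when the wall is damaged, had 11.77, 10.88 and 10.10 at 48 h, against 10.82, 10.38 and 9.72 at 24 h. These groups overlap, because replicate 3 was lower than replicate 1 at each time, and the mean paired difference was 0.61 (SE 0.16).

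SDP1 encodes a stress-inducible phosphatase that acts on Slt2, the kinase of the cell wall integrity pathway. Its signals were 8.13, 7.54 and 7.26 at 48 h, against 7.21, 7.00 and 6.92 at 24 h, with no overlap and a mean difference of 0.60 (SE 0.17). YPK2, a protein kinase of sphingolipid and cell wall signalling, had a mean difference of 0.57 (SE 0.16) with overlapping groups. TRL1, the tRNA ligase that also joins the spliced HAC1 message of the unfolded protein response, had 6.47, 6.79 and 6.74 at 48 h, against 5.55, 5.94 and 6.40 at 24 h, and the groups did not overlap (mean difference 0.70, SE 0.19). The polyamine exporter gene TPO4 had the largest mean of these 10, 0.83 (SE 0.26), but its pair differences of 1.72, 0.25 and 0.54 were uneven.

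YRO2 and HSP30 encode related plasma membrane proteins, Hsp30 being a stress-induced inhibitor of the proton pump Pma1. YRO2 had 12.22, 11.63 and 10.82 at 48 h, against 11.30, 11.47 and 10.17 at 24 h, and HSP30 had 12.81, 12.12 and 11.52 at 48 h, against 11.93, 12.10 and 10.77 at 24 h. In pair 2 these genes were nearly level, with differences of 0.16 and 0.03, while pairs 1 and 3 gave 0.92 and 0.65 for YRO2 and 0.88 and 0.75 for HSP30. ICP55, a mitochondrial aminopeptidase, had the most even differences of the 10, at 0.48, 0.51 and 0.43. JEN1, the lactate and pyruvate permease, had 9.25, 10.47 and 10.69 at 48 h, against 8.11, 10.12 and 10.40 at 24 h. Its arrays of replicate 1 were the lowest in each group, and the mean difference was 0.59 (SE 0.19).

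On the lower side, the 10 genes with the smallest p had mean differences of -2.53 to -0.50, unadjusted p-values of 0.00104 to 0.0155, and again an adjusted p of 0.953 each. TIR1, a cold-induced cell wall mannoprotein, had 9.58, 8.92 and 7.06 at 48 h, against 9.95, 9.88 and 7.64 at 24 h. The groups overlap between replicates, yet each 48 h array was below its partner, with a mean difference of -0.64 (SE 0.17, 95% interval -1.01 to -0.26). ANB1, a form of the translation factor eIF5A made mainly under hypoxia, had paired differences of -0.72, -0.96 and -0.04 and a mean of -0.57 (SE 0.19). RRN11, a subunit of the RNA polymerase I core factor, had a mean of -0.59 (SE 0.19), and LCP5, which acts in 18S rRNA maturation, a mean of -0.58 (SE 0.19). The cell cycle genes ACM1, an inhibitor of the anaphase-promoting complex activator Cdh1, and SPC29, a spindle pole body component, had means of -0.56 and -0.53 (SE 0.17 each). RBL2, a tubulin-binding chaperone, had 8.37, 8.75 and 8.83 at 48 h, against 9.20, 9.02 and 9.22 at 24 h, with no overlap and a mean of -0.50 (SE 0.17). YGR035C did not overlap either (mean -0.77, SE 0.24), and YDL085C-A had a mean of -0.67 (SE 0.17). Pair 1 gave the largest difference for 7 of the 10 genes on this side and for 9 of the 10 on the higher side.

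**Figure D2:**
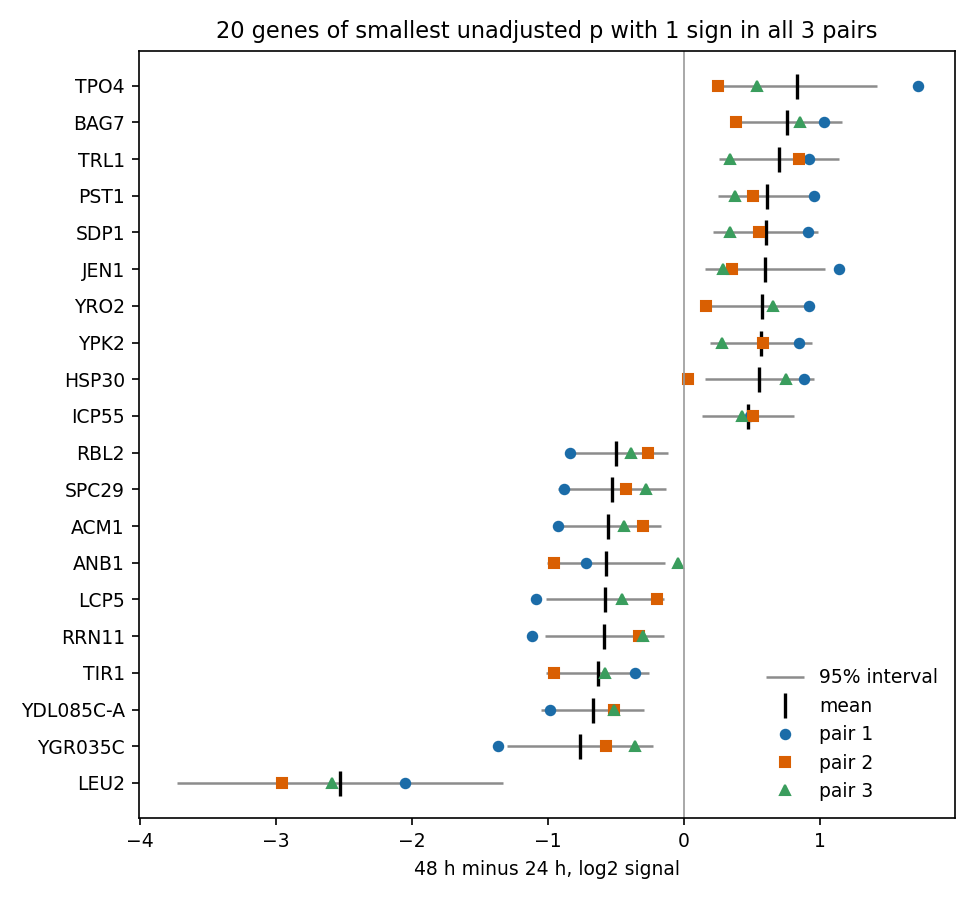
Paired differences, 48 h minus 24 h, in log2 signal (horizontal axis) for the 10 higher and 10 lower genes of smallest unadjusted p with the same sign in all pairs; points are the 3 pairs, the black tick is their mean and the grey line the 95% interval. LEU2 is far from the others at -2.53, and most other genes lie between 0.47 and 0.83 or between -0.77 and -0.50.

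LEU2, a leucine synthesis gene that the strain lacks, was the 1 gene at least 2-fold lower at 48 h in every pair. Its signals were 1.88, 1.23 and 1.10 at 48 h, against 3.94, 4.19 and 3.69 at 24 h, so the groups did not overlap, and they were 3.59, 2.88 and 1.09 in unfrozen cells. The 48 h mean was below the background threshold of 2.21, and the 24 h mean was 1.72 above it on the log2 scale (fitted difference -2.53, SE 0.53). Since the strain lacks the gene, these values set no lower bound on a difference in transcript. LEU2 was tested only because of its 24 h arrays: its mean over the other 6 arrays was 1.96, under the threshold, so its p is no support for a difference. With a pseudocount of 16 the fitted difference was -0.88. MET17, also deleted in the strain and not tested because its mean over all arrays was below background, had 1.39, 1.44 and 0.91 at 48 h, against 2.35, 2.88 and 2.62 at 24 h. URA3, the third such locus, averaged 0.32 at 48 h and 1.00 at 24 h. Its pair differences were 0.28, -3.01 and 0.69, so its lower mean at 48 h came from pair 2 alone. As a measure of how background behaves, the differences of 1746 probe sets for fission yeast, whose RNA was not applied, were taken. Of these, 66 (3.78%) were at least 2-fold lower at 48 h in all 3 pairs. A mean difference as low as that of LEU2 or lower was seen in 49. The 1746 had a median difference of -0.09, and the matching count of higher probe sets was not made. Unlike LEU2, they were not filtered by signal. HIS3, whose deletion in this strain is internal, gave 9.97, 9.48 and 8.72 at 48 h, against 9.87, 9.61 and 9.0 at 24 h, with a difference of -0.10 (SE 0.15). Where its probes lie relative to the deletion was not tested.

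For each of 37 gene lists, covering 1131 genes, the median difference was set beside that of all genes (0.01) and the count of members with the same sign in every pair beside the shares of 12.4% higher and 11.3% lower over all genes. No member of any list passed the test. The list medians ran from -0.16 for histones to 0.31 for general stress genes, and 35 of 37 lay within 0.25 of 0. For 6 lists the median was above 0 in each pair, for 1 list it was below 0 in each pair, and for 30 lists the pairs disagreed in sign. With quantile normalization 8 lists were above and 5 below 0 in each pair, and 23 list medians were above 0 in each pair without scaling. The counts of members with 1 sign in all pairs move with the scaling too: over all genes they were 433 higher and 541 lower with scaling to all probe sets, and 1828 higher and 70 lower without scaling.

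General stress genes under Msn2 and Msn4 were the list with the highest median, 0.31 over 39 genes, and 19 of them (48.7%) were higher at 48 h in all 3 pairs while 0 were lower in all 3. With scaling to all probe sets 14 were higher, and without scaling 25. The size came mostly from pair 1, where the list median was 0.65, against 0.16 in pair 2 and 0.07 in pair 3. Without pair 1 the median was 0.10, beside -0.01 for all genes. Pair 1 is also the pair in which the ribosomal RNA signal was 1.84 higher at 48 h, and the part this plays in the list was not tested. GCY1, a reductase of glycerol metabolism, had 9.03, 9.09 and 9.05 at 48 h, against 8.71, 8.56 and 8.68 at 24 h, without overlap and with pair differences of 0.32, 0.53 and 0.37 that were not led by pair 1. SOL4, a 6-phosphogluconolactonase, had a mean of 0.50 (SE 0.17) with pair differences of 0.87, 0.17 and 0.45.

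Genes for trehalose, glycogen and glycerol, the reserve and protective carbohydrates, had a median of 0.29 over 31 genes, with 14 (45.2%) higher in all 3 pairs and 1 lower; 9 were higher with scaling to all probe sets and 23 without scaling. The pair medians were 0.69, 0.05 and 0.01, so this list too rested on pair 1, and without it the median was 0.10. The general stress and carbohydrate lists share 9 genes, 6 of which were higher in all 3 pairs, so the lists are not separate. GUT1, the glycerol kinase, had 8.06, 8.01 and 7.12 at 48 h, against 7.25, 7.38 and 7.11 at 24 h, level in pair 3 and higher in the others (mean 0.49, SE 0.19). Chaperones under Hsf1 had a median of 0.15 over 27 genes, with pair medians of 0.22, 0.07 and 0.03 and 8 genes (29.6%) higher in all pairs. Among them the polyubiquitin gene UBI4 had 11.34, 10.44 and 10.67 at 48 h, against 10.35, 10.05 and 10.64 at 24 h (mean 0.47, SE 0.19), and the Hsp110-type chaperone SSE2 had a mean of 0.41 (SE 0.20).

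Oxidative stress genes had a median of 0.08 over 39 genes, with 9 higher and 4 lower in all pairs. The pair medians were 0.22, -0.01 and 0.02, and without pair 1 the median was -0.02. Within that list the peroxisomal catalase CTA1 had 6.14, 6.55 and 7.53 at 48 h, against 5.71, 6.06 and 7.12 at 24 h, and the mitochondrial peroxiredoxin PRX1 had 9.87, 9.35 and 9.49 at 48 h, against 9.54, 9.08 and 9.15 at 24 h. Their pair differences were even, 0.43, 0.49 and 0.41 for CTA1 and 0.33, 0.27 and 0.33 for PRX1. Hydrophilins and membrane stress proteins had a median of 0.12 over 22 genes (7 higher, 2 lower in all pairs), stationary phase genes 0.13 over 17 genes (4 higher, 0 lower), folding genes of the endoplasmic reticulum 0.08 over 20 genes (2 higher, 0 lower) and autophagy genes 0.05 over 34 genes (3 higher, 1 lower). Components of the Ras, protein kinase A and HOG pathways had a median of 0.13 over 27 genes (3 higher, 1 lower). STE11, a MAP kinase kinase kinase of the mating and HOG pathways, did not overlap between the groups (mean 0.31, SE 0.16).

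Membrane and wall genes gave small values of either sign. Of the water channel genes, AQY1 had 5.57, 4.73 and 3.17 at 48 h, against 4.62, 4.12 and 2.24 at 24 h. Its pair differences were even, at 0.95, 0.61 and 0.93, but its signal was near background and its 95% interval ran from 0.10 to 1.56 (unadjusted p = 0.0298, adjusted p = 0.953). With a pseudocount of 16 the difference was 0.39 in place of 0.83. AQY2 had a mean of 0.21 (SE 0.20), and the median of the 3 channel genes tested was 0.21. Whether AQY1 and AQY2 give working channels in this strain was not tested. Cell wall integrity genes had a median of 0.14 over 33 genes, with 9 (27.3%) higher in all pairs, but pair medians of 0.50, -0.06 and -0.07. PIR3, a wall glycoprotein, had 9.37, 8.18 and 6.76 at 48 h, against 7.97, 8.0 and 6.46 at 24 h (mean 0.63, SE 0.23). The list of cold-induced and hypoxic mannoproteins of the TIR, DAN and PAU families had a median of -0.10 over 19 genes. Of these, 1 was higher and 3 were lower in all pairs. The list also holds other cold-induced genes, namely NSR1, OLE1, FBA1, TPI1 and YTP1.

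The medians of the sterol and fatty acid lists differed in sign between pairs. Ergosterol synthesis had a median of 0.02 over 28 genes, with pair medians of 0.18, -0.13 and -0.02, and the HMG-CoA reductases HMG1 and HMG2 had means of 0.19 (SE 0.16) and 0.27 (SE 0.20), HMG2 from pair 1 alone (0.84, -0.0049 and -0.02). Fatty acid genes had a median of 0.01 over 16 genes, with pair medians of 0.31, -0.14 and -0.14, and the median was -0.16 without pair 1. Phospholipid and inositol genes had a median of 0.11 over 21 genes, with 5 higher and 2 lower in all pairs. INO1, which makes inositol phosphate from glucose 6-phosphate, had 8.93, 8.42 and 9.37 at 48 h, against 7.78, 7.89 and 9.28 at 24 h. It overlapped between groups, and its pair differences of 1.15, 0.53 and 0.09 gave a mean of 0.59 (SE 0.21).

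**Figure D3:**
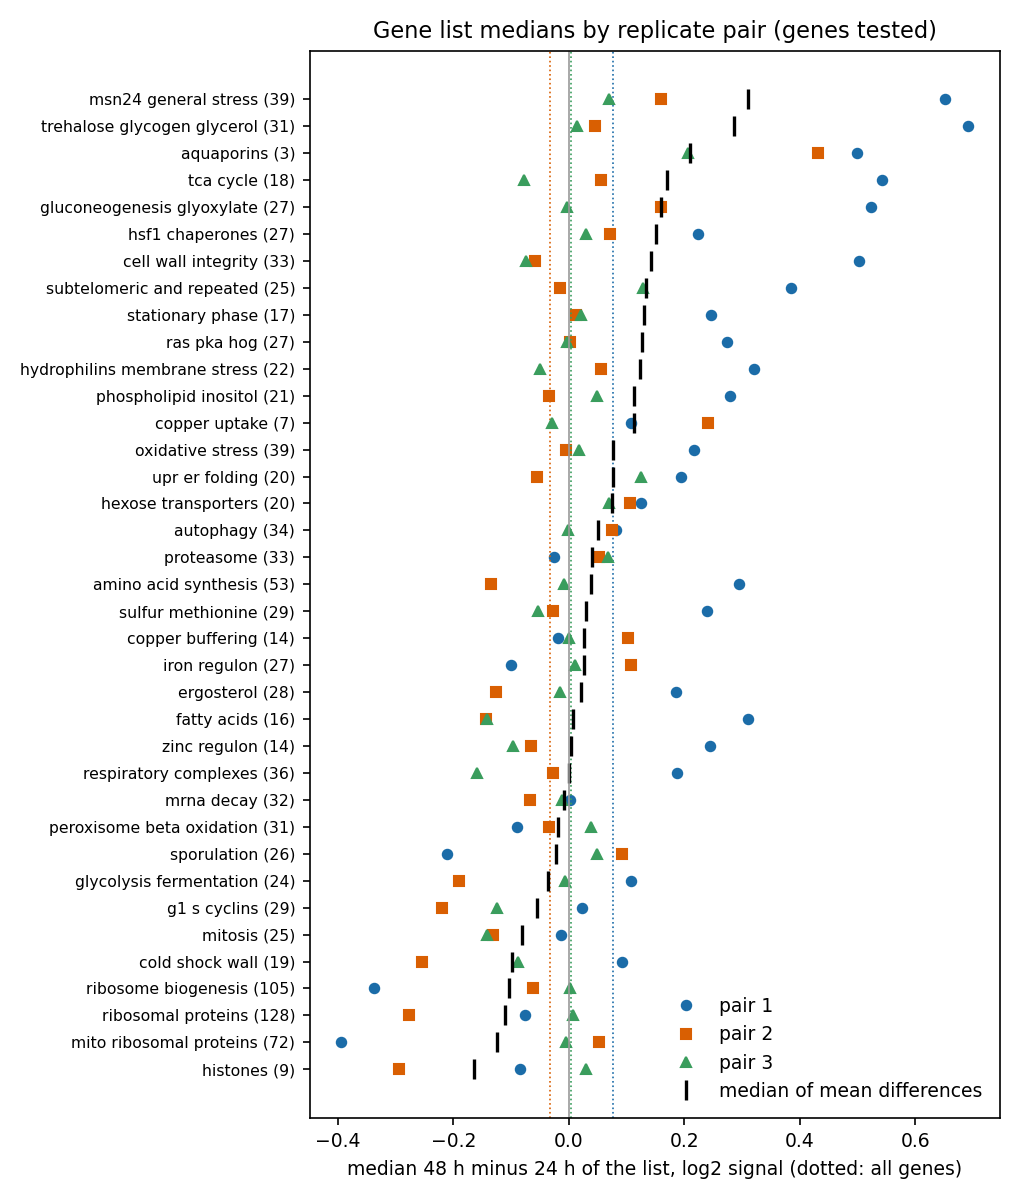
Median difference, 48 h minus 24 h, in log2 signal (horizontal axis) of 37 gene lists (vertical axis, with the number of genes tested), by replicate pair (points) and for the mean over pairs (black tick); dotted lines are the medians of all genes. General stress genes are at the top (0.65, 0.16 and 0.07 in pairs 1 to 3) and histones at the bottom, and pair 1 is the farthest from 0 for most of the lists at the top.

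The gluconeogenesis and tricarboxylic acid cycle lists were above all genes in median, mostly through pair 1. Gluconeogenesis and glyoxylate genes had a median of 0.16 over 27 genes (7 higher, 0 lower in all pairs; pair medians 0.52, 0.16 and -0.00), and tricarboxylic acid cycle genes 0.17 over 18 genes (3 higher, 0 lower; 0.54, 0.06 and -0.08). ADR1, the activator of genes for ethanol use, had a mean of 0.58 (SE 0.19). The mitochondrial citrate synthase CIT1 had 11.26, 11.08 and 10.95 at 48 h, against 10.59, 10.92 and 10.70 at 24 h, with no overlap (mean 0.36, SE 0.16). Glycolysis and fermentation genes had a median of -0.04 over 24 genes, with 1 higher and 7 (29.2%) lower in all pairs. With quantile normalization the median was 0.03, with 4 higher and 2 lower, and scaling to all probe sets left 1 lower. The abundant TDH3, a glyceraldehyde 3-phosphate dehydrogenase, had 13.40, 13.56 and 12.46 at 48 h, against 13.61, 13.92 and 12.56 at 24 h (mean -0.22, SE 0.11). Hexose transporters had a median of 0.07 over 20 genes, respiratory complexes 0.00 over 36 genes (1 higher, 7 lower in all pairs) and peroxisome genes -0.02 over 31 genes. The external NADH dehydrogenase gene NDE1 had a mean of 0.42 (SE 0.18), and NDE2 had 0.38 (SE 0.17).

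Ribosome lists were below all genes in median when all pairs were used. Without pair 1 the median of all genes was -0.014. The cytosolic list was then at -0.14, the biogenesis list at -0.023 and the mitochondrial list at 0.013, above all genes. For genes of cytosolic ribosomal proteins the median was -0.11 over 128 genes, with 36 (28.1%) lower and 0 higher in all pairs. The lower count was 17 (13.3%) with scaling to all probe sets, beside 541 of all genes, and 27 with quantile normalization, where the median was -0.04 and 4 genes were higher; without scaling it was 6, with 13 higher. The list was drawn by name and also holds RPP1, a subunit of RNase P. The list's pair medians were -0.08, -0.28 and 0.01, and every one of the 128 intervals lay within 2-fold. These genes are bright, with list medians of 12.61 at 48 h and 12.73 at 24 h. In pair 2 the brightest 1349 of all genes had a median of -0.10, against 0.05 for the dimmest 1349. With quantile normalization the pair 2 median of the list was -0.02. The part that brightness plays in the list was not tested. RPL29 had 12.90, 13.37 and 12.38 at 48 h, against 13.31, 13.64 and 12.59 at 24 h (mean -0.30, SE 0.11, unadjusted p = 0.0272, adjusted p = 0.953). Ribosome biogenesis genes had a median of -0.10 over 105 genes, with 28 (26.7%) lower and 5 higher in all pairs, and pair medians of -0.34, -0.06 and 0.00. NOP10, a component of the H/ACA ribonucleoprotein, had a mean of -0.35 (SE 0.12), and RRP15, which acts in the large subunit, -0.51 (SE 0.21). Mitochondrial ribosomal protein genes had a median of -0.12 over 72 genes, with pair medians of -0.39, 0.05 and -0.00. Proteasome genes had a median of 0.04 over 33 genes, amino acid synthesis genes 0.04 over 53 and sulfur and methionine genes 0.03 over 29. Messenger RNA decay genes had a median of -0.01 over 32 genes. Without any scaling, the difference of all genes had a median of 0.14, and the medians of the 3 ribosome lists took the opposite sign (0.02, 0.02 and 0.0034 for the cytosolic, biogenesis and mitochondrial lists) while staying below that of all genes.

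Mitotic genes were the list with a median below 0 in each pair under the scaling used here; with quantile normalization 5 lists were. They had a median of -0.08 over 25 genes, pair medians of -0.01, -0.13 and -0.14, and 10 genes (40%) lower in all pairs with 0 higher. SPO12, a regulator of mitotic exit, had 7.33, 8.03 and 8.19 at 48 h, against 8.09, 8.20 and 8.64 at 24 h (mean -0.46, SE 0.17), and the securin gene PDS1 had a mean of -0.44 (SE 0.17). Cyclins and replication genes of G1 and S phase had a median of -0.06 over 29 genes, with 7 lower and 0 higher in all pairs. The S phase cyclin CLB5 had 7.02, 7.32 and 7.30 at 48 h, against 7.33, 7.71 and 7.73 at 24 h, with no overlap and even pair differences of -0.31, -0.39 and -0.44 (unadjusted p = 0.0333, adjusted p = 0.953). Histone genes had a median of -0.16 over 9 genes, and sporulation genes -0.02 over 26. With values as deposited, the medians of the mitotic and the G1 and S phase lists were above 0, at 0.05 and 0.07. Subtelomeric and repeated genes, whose probe sets can bind related copies, had a median of 0.13 over 25 genes.

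The title of the series names copper homeostasis. Of the 7 genes for copper uptake, 0 passed the test, their differences ran from -0.28 to 0.42 with a median of 0.11, and all 7 intervals lay within 2-fold, the widest bounds being -0.62 and 0.81. CTR1, the high-affinity copper transporter, had 10.97, 10.85 and 10.74 at 48 h, against 11.10, 10.55 and 10.58 at 24 h. The groups overlap, and the difference was 0.11 (SE 0.15, 95% interval -0.23 to 0.45). FRE1, the metalloreductase that prepares copper for uptake, had 11.42, 10.89 and 10.95 at 48 h, against 11.22, 10.68 and 11 at 24 h, a difference of 0.12 (SE 0.14).

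The second transporter gene CTR3 had 6.97, 6.61 and 6.65 at 48 h, against 6.86, 6.30 and 6.59 at 24 h (difference 0.16, SE 0.17). FRE7, a reductase gene under Mac1, had the largest difference of the 7, with 8.67, 7.46 and 6.73 at 48 h, against 7.96, 7.01 and 6.63 at 24 h. The groups overlap, and the difference was 0.42 (SE 0.17, 95% interval 0.03 to 0.81, unadjusted p = 0.0359, adjusted p = 0.953). REE1 and IRC7 had differences of 0.10 and 0.08 (SE 0.14 each). The activator gene MAC1 itself had 8.02, 8.26 and 8.18 at 48 h, against 8.39, 8.37 and 8.52 at 24 h, without overlap, and a difference of -0.28 (SE 0.15, 95% interval -0.62 to 0.06).

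In unfrozen cells CTR1 had 7.99, 7.99 and 10.62 and FRE1 had 8.37, 8.01 and 10.84. The third unfrozen array was thus at the level of the frozen arrays for these genes and the others were far below, which does not enter the difference between 48 h and 24 h.

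**Figure D4:**
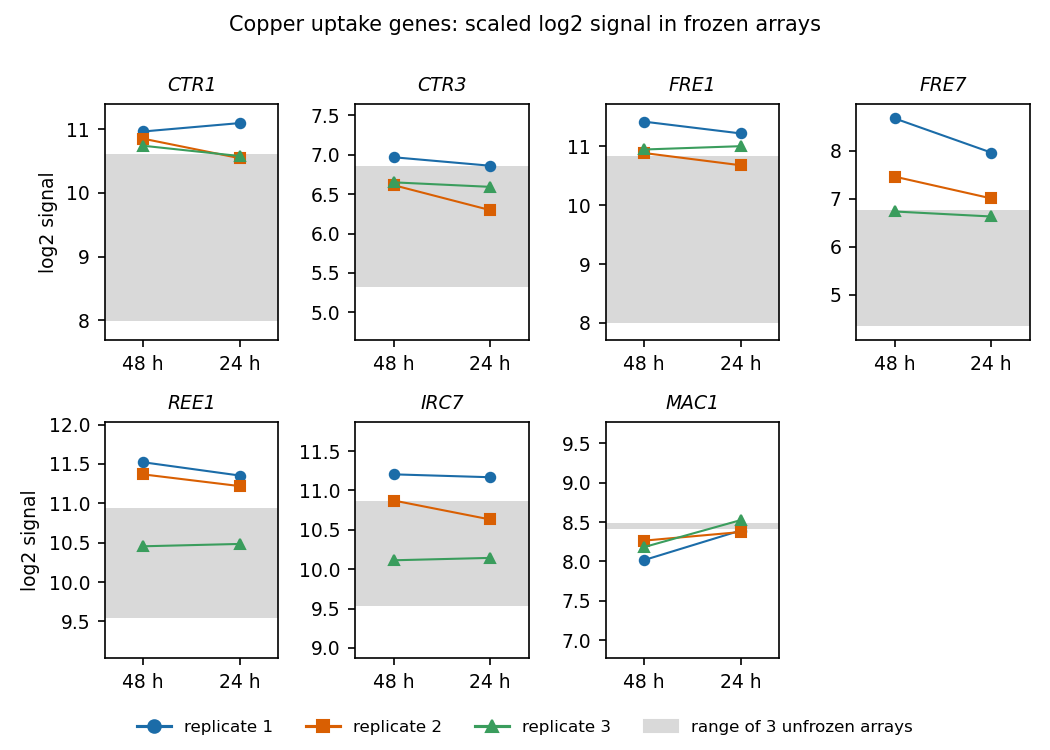
Scaled log2 signal (vertical axis, each panel its own range) of 7 copper uptake genes on the 48 h arrays (left) and 24 h arrays (right), lines joining arrays of the same replicate number, with the range of the 3 unfrozen arrays in grey. The largest mean difference is that of FRE7, 0.42.

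Of the genes for copper buffering and delivery, 14 were tested, 0 passed, the median difference was 0.03, and 13 intervals lay within 2-fold. The metallothionein CUP1-1, whose probe set cannot be told apart from its copy CUP1-2, had 13.29, 13.72 and 12.87 at 48 h, against 13.66, 13.92 and 12.85 at 24 h (difference -0.18, SE 0.12). SOD1 had 12.91, 12.25 and 11.64 at 48 h, against 12.70, 12.30 and 11.54 at 24 h (0.09, SE 0.12), and its copper chaperone CCS1 had a difference of -0.08 (SE 0.15). The largest differences were those of COX17 and ATX1, which carry copper to the mitochondrial intermembrane space and to the secretory pathway. COX17 had -0.48 (SE 0.25, 95% interval -1.04 to 0.08) and ATX1 had -0.41 (SE 0.22), and in each case pair 1 was the farthest from 0, with -1.31 beside 0.09 and -0.21 for COX17 and -1.12 beside -0.22 and 0.11 for ATX1.

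COX19 had a difference of 0.32 (SE 0.19), and the copper-sensing activator of the metallothioneins, CUP2, had -0.10 (SE 0.16). The vacuolar transporter CTR2, the ATPase CCC2, the metallothionein CRS5 and the cytochrome oxidase assembly genes COX11, COX23, SCO1 and SCO2 lay between -0.09 and 0.15. The iron regulon had a median of 0.03 over 27 genes and the zinc regulon 0.00 over 14, with 0 genes past the test in each.

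Among the 10 genes farthest from the unfrozen arrays, 0 passed the test of 48 h against 24 h. These genes were chosen by the mean of all 6 frozen arrays against the unfrozen mean. Only genes whose 6 frozen arrays all lay on 1 side of the 3 unfrozen arrays were considered. Their distance from unfrozen cells is thus a description. SPG4, needed for survival in stationary phase, had 6.54, 8.74 and 9.75 at 48 h, against 7.76, 8.52 and 9.73 at 24 h, while unfrozen cells had 4.48, 4.27 and 4.79. Replicate 1 was lowest and replicate 3 highest at each time, and the 48 h minus 24 h difference was -0.33 (SE 0.26, 95% interval -0.92 to 0.26). ADY2, an acetate transporter gene, had 7.49, 8.57 and 9.01 at 48 h, against 6.56, 8.35 and 9.27 at 24 h (0.30, SE 0.22), and unfrozen cells had 4.96, 4.95 and 3.37.

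POT1, the peroxisomal thiolase, had a difference of 0.21 (SE 0.24), YNL194C, a membrane protein of the Sur7 family, had 0.40 (SE 0.25) and YLR012C had -0.37 (SE 0.31). OLE1, the fatty acid desaturase, had 10.75, 10.02 and 8.83 at 48 h, against 10.52, 10.43 and 9.21 at 24 h, and unfrozen cells had 12.84, 13.16 and 11.68. Its difference between frozen times was -0.19 (SE 0.17, 95% interval -0.58 to 0.21). The phospholipase gene PLB2 had -0.30 (SE 0.19), and IZH4 had -0.11 (SE 0.18).

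DAN1, an anaerobic wall mannoprotein, was the least even of these genes. It had 5.70, 4.32 and 2.73 at 48 h, against 8.28, 4.17 and 2.15 at 24 h, and 8.51, 8.51 and 8.57 in unfrozen cells. The 24 h array of replicate 1 was thus close to the unfrozen arrays, while replicates 2 and 3 were far below them at each time, and the mean difference of -0.62 (SE 0.54) came from that pair. TIR1 belongs to this group as well and is the only member of it that is also among the 10 lower genes above.

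**Figure D5:**
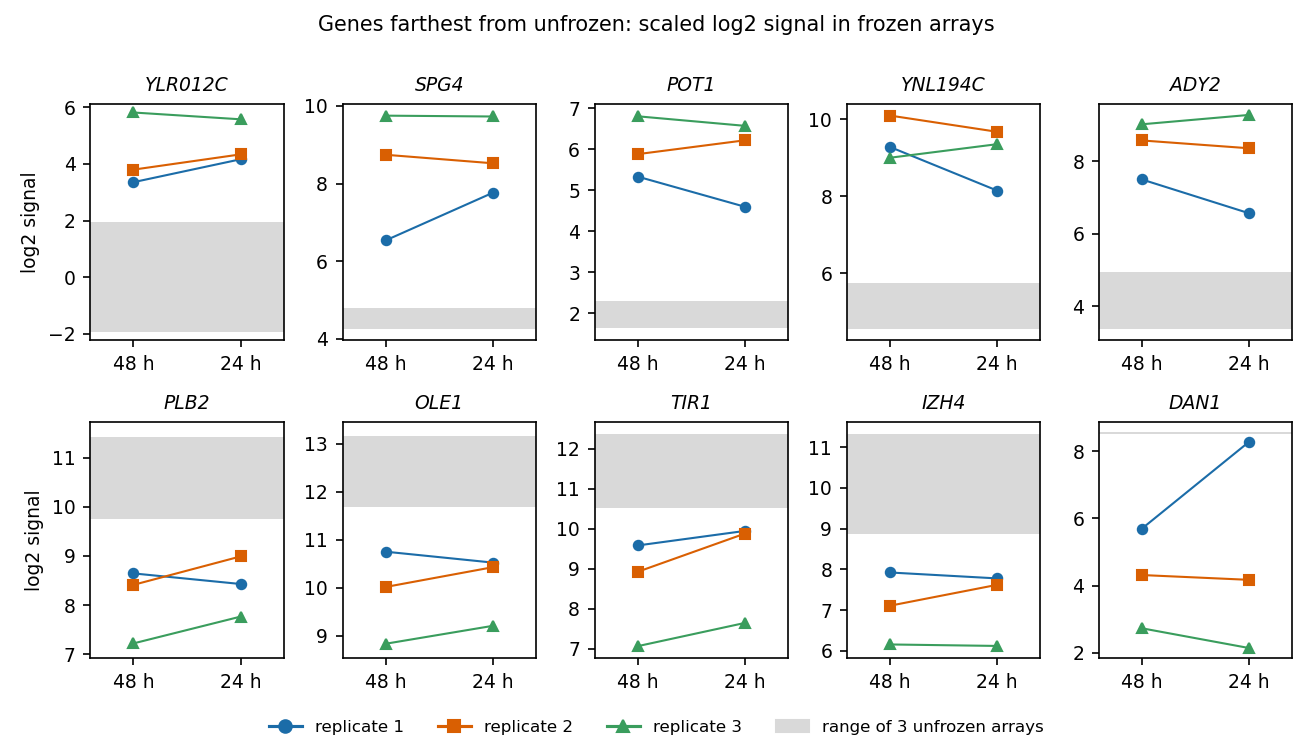
Scaled log2 signal (vertical axis, each panel its own range) of the 5 genes farthest above and the 5 farthest below the unfrozen arrays, on the 48 h arrays (left) and the 24 h arrays (right), lines joining arrays of the same replicate number, with the range of the 3 unfrozen arrays in grey. SPG4 is lowest in replicate 1 at each time, and DAN1 of replicate 1 has the steepest line (5.70 at 48 h and 8.28 at 24 h).

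At the other end, the 5 genes whose pairs disagreed most were all dim. They were YHR007C-A, YGL188C-A, YML054C-A, YNL018C and YFL067W. The widest was YHR007C-A, with 4.62, 3.54 and 1.91 at 48 h, against 3.38, -1.85 and 2.72 at 24 h. Its pair differences of 1.24, 5.40 and -0.81 gave a mean of 1.94 with an SE of 1.04 (95% interval -0.41 to 4.29).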

How the data were processed

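The labels describe poly(A)-enriched RNA on single-colour Affymetrix Yeast Genome 2.0 arrays. The authors deposited linear intensity values for each probe set, and the program named in the submitters' processing notes is GCOS. Its version is not given in the sources used here. Of 10928 probe sets, 5498 had a single S. cerevisiae gene in the platform annotation. Their log2 values were shifted on every array to a common median. Genes were kept if their mean over all 9 arrays exceeded 2.21, the 95th percentile of 1746 fission yeast probe sets, and the brightest probe set stood for its gene, which left 5396 genes.

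The 48 h minus 24 h difference was fitted with limma 3.58.1 in R 4.3.3 on the 6 frozen arrays, with replicate number as a block, empirical Bayes moderation with a trend and Benjamini-Hochberg adjustment over 5396 genes (2 residual degrees of freedom; threshold 0.05, two-sided). Same-numbered 48 h and 24 h arrays deviated together (correlations 0.59, 0.39 and 0.79), judged from the data. Same-numbered 24 h and unfrozen arrays did so less evenly (-0.38, 0.25 and -0.12), so the number is not shown to mark a block across the series. The procedure was tested on simulated data. The number of arrays limits the precision.

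The members and lists were chosen with earlier results of these data known. Named are the 10 genes of smallest p in each direction with 1 sign in all pairs (none passed). Also named are the 5 genes farthest above and the 5 farthest below unfrozen arrays, among genes whose frozen arrays did not overlap them. All copper genes, the 5 least even genes and the strain loci are named too. Of the 2 list members of smallest p in the direction of the list median, some are printed. The alternatives were other scalings, a pseudocount of 16, other filters, averaging a gene's probe sets, no trend, other forms of the block and each pair left out. Of the list entries, 31 were not tested, with HOR2 counted in each of its lists. All but HXT13, which was below the filter, had no probe set with 1 gene under the listed name. No promoter or transcript sequence was used here.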

Additional observations from a re-analysis of the deposited data

How the results depend on the processing

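No gene was called higher under any of 16 alternatives. Genes called lower were 2 with scaling to the median over every probe set (LEU2, adjusted p = 0.04, and YNL162W-A, adjusted p = 0.0345), 1 with no trend (LEU2, 0.0281), 3 under a replicate block with array weights, an alternative chosen after pair 1 was seen to differ more (TIR1, 0.00222; LEU2, 0.0115; INA1, 0.0174), and 0 to 1 when 1 pair was left out (PFD1, 0.0141, without replicate 3); the limma fits otherwise called 0. The strain lacks LEU2, which was tested only because of its 24 h arrays. Its p-values under these fits are no support for a difference. Under the scaling to all probe sets and without replicate 3, limma gave every gene the spread of the trend alone (10792 and 5396 total degrees of freedom, against 8.91). The gene's own spread thus did not count. Without the replicate block, 0 genes were called on the 6 frozen arrays (11 at an unadjusted p under 0.05, smallest adjusted p 1.00) and 0 on all 9 (22), and with a replicate block on all 9 arrays 0 were called (31); as a random effect the block gave 0 (148). Without replicate 1, 385 genes had an unadjusted p under 0.05, against 135 with all pairs, and 0 were called; without replicates 2 and 3 the counts were 99 and 288. The count of intervals within 2-fold was 4073 to 5342 under the alternatives. Genes higher in all 3 pairs numbered 433 with scaling to all probe sets and 1828 with values as deposited, which shift the median of all genes to 0.14, and 70 were then lower. A count over all 3 pairs was not made with a pair left out. Genes at least 2-fold higher in every pair were 1 with no filter, and lower 2 with no filter, 0 with the 99th percentile filter and 0 with the pseudocount of 16. With values as deposited, list medians moved to 0.18 (autophagy), 0.15 (copper buffering), 0.072 (G1 and S phase), 0.20 (hexose transporters), 0.28 (Hsf1 chaperones), 0.15 (iron), 0.047 (mitosis), 0.12 (mRNA decay), 0.20 (oxidative stress), 0.11 (peroxisome) and 0.17 (proteasome). The hexose transporter median was 0.034 with the pseudocount. Leaving out a pair gave medians of 0.065 to 0.46 for aquaporins, 0.0027 to 0.058 for hexose transporters, -0.035 to 0.061 for mRNA decay and -0.017 to 0.19 for stationary phase genes, and array weights gave -0.0088 for stationary phase genes. Of 37 list medians, 13 changed sign without replicate 1. The cause of these shifts was not tested, apart from the fits named. Promoter motifs were not run.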

Other observations

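Probe sets without a listed S. cerevisiae gene, outside the comparison of genes, were fitted in the same way. Of 524 above background, 0 were called in limma's paired fit (8 at an unadjusted p under 0.05).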
